A study of Homo sapiens with 59 samples.

Results

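The response of Jurkat cells to less histidine was compared with their response to less tryptophan, gene by gene. Jurkat is an established human T cell leukaemia line, and its mRNA was sequenced at day 3. The comparison uses 20 of the series' 59 libraries, in 4 groups of 5. These are cells labelled 25% histidine, cells labelled histidine control, cells labelled 25% tryptophan and cells labelled tryptophan control. The labels give no other difference between the groups, and they do not describe the control medium or state if each replicate was its own culture. The p-values therefore rest on a spread among replicates that may be only technical. Of 26811 genes present in the deposited tables of both amino acids, the 16216 whose mean reached 10 normalised counts in each table were tested. The histidine response of a gene is restricted minus control in log2(normalised count + 1), so changes of weakly expressed genes come out too small. The tryptophan response is the same quantity in the tryptophan table, and the difference between responses is histidine minus tryptophan. A gene is called when its limma p-value, adjusted over all 16216 genes by the Benjamini-Hochberg method, lies below 0.05.

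Cells sense the loss of an amino acid in several ways. Uncharged tRNA activates the kinase GCN2, which phosphorylates the translation factor eIF2; general protein synthesis slows while the transcription factor ATF4 is translated more, and ATF4 then raises genes for amino acid synthesis, uptake and tRNA charging, forming the integrated stress response. Amino acid supply also controls mTORC1, which drives ribosome production, nucleotide synthesis and sterol synthesis through SREBP factors. Other sensors respond to the metabolic or folding state of the cell: MondoA drives TXNIP and ARRDC4 through E-box-like elements, and heat-shock factor 1 drives cytosolic chaperones. T cells are known to meet low tryptophan where neighbouring cells degrade it.

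The starts of a few genes on which the comparison turns are shown first, because CHAC1, HSPA8 and ARRDC4 were called in the same direction under both restrictions, and ASNS and HSPA6 under 1 of them. Each run is the 250 bases before the first start listed for the gene by RefSeq (GRCh38.p14), written 5′ to 3′ along the gene's strand. Capitals mark matches, on either strand, to TGATGNAA (the ATF4 and C/EBP composite element) in CHAC1 and ASNS, to GAANNTTC (a facing pair of heat-shock units) in HSPA6 and HSPA8, and to CACGTG (an E-box) in ARRDC4. CHAC1 degrades glutathione and lies at chr15:40953221-40953470, plus strand. ASNS makes asparagine and its run lies at chr7:97872409-97872658, minus strand. HSPA6 (chr1:161524290-161524539, plus strand) and HSPA8 (chr11:123062137-123062386, minus strand) encode a stress-induced and a constitutive member of the HSP70 family. ARRDC4 (chr15:97960453-97960702, plus strand) encodes an arrestin-domain relative of TXNIP.
CHAC1: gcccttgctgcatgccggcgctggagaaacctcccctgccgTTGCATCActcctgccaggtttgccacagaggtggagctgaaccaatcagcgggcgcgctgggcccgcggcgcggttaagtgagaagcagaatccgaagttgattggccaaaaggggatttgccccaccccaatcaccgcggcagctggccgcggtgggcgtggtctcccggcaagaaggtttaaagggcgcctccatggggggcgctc
ASNS: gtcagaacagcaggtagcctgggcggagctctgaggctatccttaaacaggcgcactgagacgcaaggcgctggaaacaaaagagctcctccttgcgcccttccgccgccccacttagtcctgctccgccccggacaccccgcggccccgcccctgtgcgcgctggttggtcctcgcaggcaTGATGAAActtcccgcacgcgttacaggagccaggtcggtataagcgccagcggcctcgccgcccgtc
HSPA6: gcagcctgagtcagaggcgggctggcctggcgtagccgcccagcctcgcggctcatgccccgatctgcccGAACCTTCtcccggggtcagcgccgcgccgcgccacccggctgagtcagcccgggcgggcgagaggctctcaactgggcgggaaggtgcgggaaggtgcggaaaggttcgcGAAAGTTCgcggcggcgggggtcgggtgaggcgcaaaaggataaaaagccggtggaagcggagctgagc
HSPA8: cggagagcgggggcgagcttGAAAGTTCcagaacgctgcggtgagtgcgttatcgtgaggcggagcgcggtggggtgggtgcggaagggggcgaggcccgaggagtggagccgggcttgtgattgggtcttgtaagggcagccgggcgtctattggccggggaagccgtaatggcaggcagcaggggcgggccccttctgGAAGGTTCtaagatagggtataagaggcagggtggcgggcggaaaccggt
ARRDC4: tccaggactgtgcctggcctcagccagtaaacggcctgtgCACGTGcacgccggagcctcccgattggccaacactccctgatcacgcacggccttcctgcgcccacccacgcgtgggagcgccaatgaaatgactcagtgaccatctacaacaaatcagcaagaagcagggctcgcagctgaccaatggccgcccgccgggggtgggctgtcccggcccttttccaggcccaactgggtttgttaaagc
These matches are descriptions of the letters and not evidence of binding. In windows from 250 bases before to 50 bases after the start, TGATGNAA occurred in 1.58% of 11118 tested genes with a listed promoter, in 2.35% of 765 genes that rose under both restrictions and in 1.71% of 819 that fell under both. It occurred in 2.64% of 796 genes that rose under histidine and fell under tryptophan. Of 235 that did the reverse, 0.426% had it, which is 1 gene. GAANNTTC occurred in 4.55% of the tested genes, 4.97% of the shared rises and 6.11% of the shared falls. CACGTG, which reads the same on both strands, occurred in 10.1%, 9.28% and 12.7% of the same groups. In the opposite genes, histidine higher and then lower, GAANNTTC occurred in 4.77% and 4.68% and CACGTG in 11.2% and 9.36%. TCACNCCAC, a sterol regulatory element, was also searched. It occurred in 1.10%, 0.654% and 1.22% of the tested genes, shared rises and shared falls, and in 1.38% and 2.13% of the opposite genes. Over all 35114 promoters listed the shares were 3.62%, 6.77%, 7.26% and 1.13% for the motifs in the order given.

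Depth and purity of the 20 libraries bear on the values below. Normalised counts summed to 15900000 to 17200000 per library in the histidine table, to 18200000 to 18800000 in the tryptophan controls and to 15300000 to 16000000 in the tryptophan restricted libraries. Where the step between low values could be read, in 16 libraries, it gave an estimate of 11900000 to 22100000 reads per library. It could not be read in histidine control 5 or in tryptophan restricted libraries 1, 3 and 5. The depth of those libraries is unknown and may lie outside this range. The 13 T cell markers summed to 54116 to 59068 normalised counts in the tryptophan restricted libraries and to 64858 to 73494 in all others. TRBC1 had group means of 21649 in the tryptophan controls and 10718 in the tryptophan restricted group. CD28 was low, at 24.1 to 59.1 as group means. The 7 myeloid markers listed summed to 33.1 to 243 in the histidine table and to 1.17 to 27.3 in the tryptophan table. Histidine control 3 stood apart. In that library 355 genes lay more than 8-fold above every other histidine control, against 0 to 5 in each of the other 19 libraries judged within their own groups. They included mRNAs of the gut lining such as FABP1 (2240 normalised counts, at most 7.05 in the other 9 histidine-table libraries), of antibody chains such as IGKC (2728, at most 23.6) and of connective tissue such as COL3A1 (7976, at most 57.2), named here after their values were seen. The 7 fibroblast and epithelial markers summed to 15114.5 in the highest histidine control and to at most 530.1 in any library of the other groups. Values without this library are given beside several of the results below. In the 29 gene lists its removal moved a count of histidine rises or falls by at most 2 genes and a count of difference calls in 1 direction by at most 3.

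Less histidine and less tryptophan changed many mRNAs each, and the genes called in both moved the same way more often than opposite ways. Over all genes tested the responses were only weakly related (Pearson's r 0.088 and Spearman's rho 0.073 across genes, which are not replicates). Under histidine restriction 3238 genes rose (20.0% of those tested) and 2433 fell (15.0%). Under tryptophan restriction 3698 rose (22.8%) and 4454 fell (27.5%), so 35.0% and 50.3% of genes were called. Changes of at least 2-fold were called for 842 genes under histidine and 1793 under tryptophan. Of the 3334 genes called in both, 2027 moved the same way: 1033 rose under both (6.37% of genes tested) and 994 fell under both (6.13%). The shared rises were 31.9% of the histidine rises and 27.9% of the tryptophan rises, and the shared falls were 40.9% and 22.3% of the falls. The remaining 1307, 39.2% of those called in both, went opposite ways, 935 up under histidine and down under tryptophan (5.77%) and 372 the reverse (2.29%). These splits depend on the scaling of the libraries. With every library set to the same total the opposite genes were 644 and 596, and the shared rises and falls 1921 and 617. Under tryptophan 6475 genes then rose and 2678 fell. Without histidine control 3 the histidine calls were 3134 higher and 2273 lower.

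The responses themselves were tested against each other. The difference was called for 7016 genes (43.3%), with the histidine response the higher in 4171 (25.7%) and the lower in 2845 (17.5%), and it reached 2-fold in 2276. Of these 7016, 3280 were called under tryptophan alone, 1410 under histidine alone, 1307 in opposite directions, 663 in the same direction and 356 in neither. Among the 1033 shared rises the difference was called in 257, of which 196 rose further under tryptophan and 61 further under histidine. In 532 shared rises the 95% interval of the difference lay within 1.5-fold either way, in 47 of these with a called difference. For the 994 shared falls, 406 differed, 325 falling further under tryptophan, and 529 lay within 1.5-fold. The split of directions follows the scaling of the libraries: the histidine response was the higher in 59.4% of the difference calls on the deposited scale and in 37.5% after every library was set to the same total, which lowered the median difference of all genes by 0.21 and raised the median tryptophan response by 0.25.

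**Figure D1:**
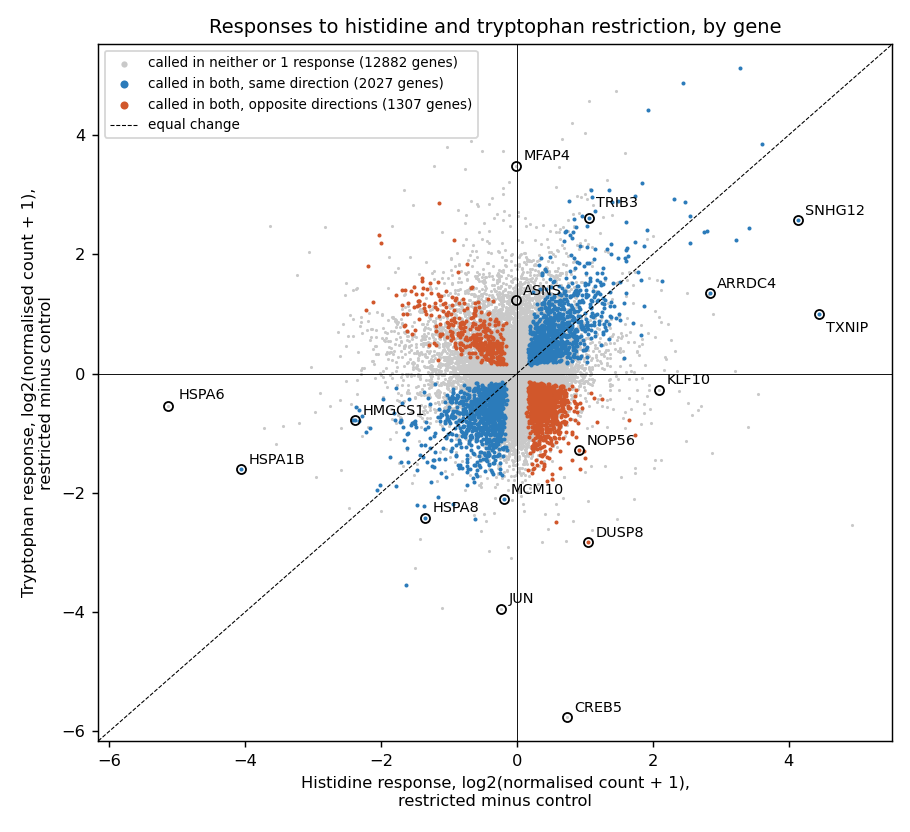
Each point is 1 of the 16216 genes tested, with the histidine response (log2, restricted minus control) on the x axis and the tryptophan response on the y axis. Blue points are the 2027 genes called in both in the same direction, orange points the 1307 called in opposite directions and grey points all others; the dashed line marks equal change, and named genes such as TXNIP, HSPA6, JUN and CREB5 lie far from it.

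Much of the difference lay between the control groups. In 5394 of the 7016 genes with a called difference, 76.9%, the gap between the histidine and tryptophan controls was larger than the gap between the restricted groups, against 66.4% of all genes tested. The median size of the gap in these 7016 genes was 0.70 between controls and 0.29 between restricted groups on the log2 scale. Over all genes it was 0.49 and 0.29. Likewise the correlation across genes between a histidine library and a tryptophan library had a median of 0.930 for controls (0.919 to 0.949) and 0.958 for restricted libraries (0.946 to 0.968), as a description across genes, which are not replicates. The tables were scaled separately, so a gap between tables is a description without a test; with every library at the same total, 75.0% of the 7343 genes then called had the larger gap between controls. The histidine controls were also the least alike within a group. The median correlation of a library with its own group was 0.954 to 0.961 there. In the other groups it was 0.966 to 0.977. The gaps and correlations between tables are not given here without histidine control 3. What set the controls apart was not tested.

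**Figure D2:**
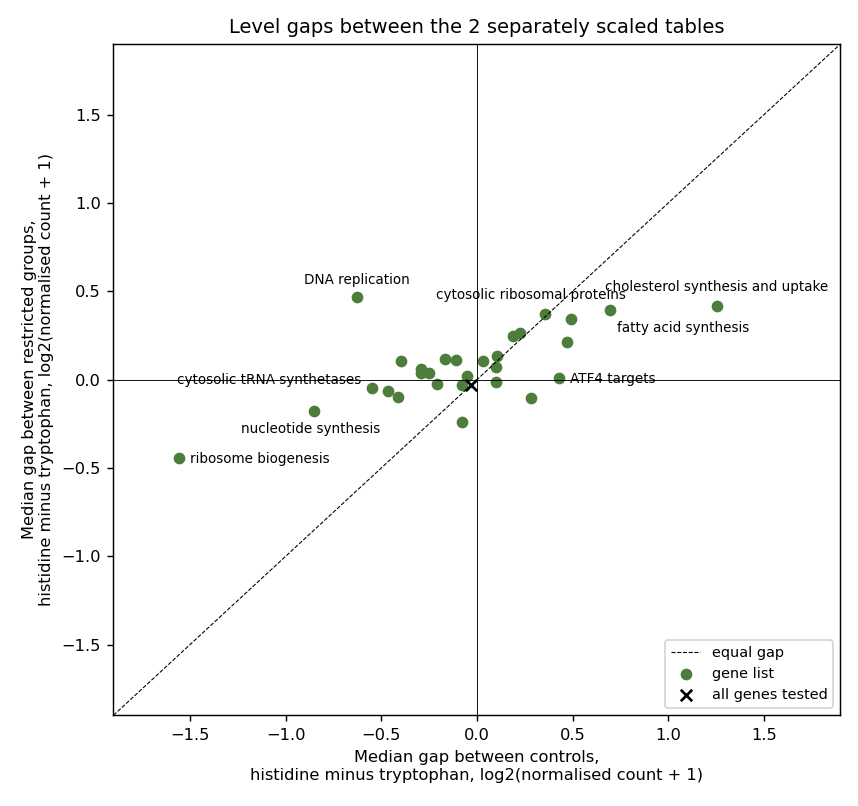
Each green point is a gene list, with its median gap between the control groups (x axis) and between the restricted groups (y axis), histidine minus tryptophan, on the log2(normalised count + 1) scale; the dashed line marks equal gaps and the cross all genes tested. Ribosome biogenesis lies at -1.56 between controls and -0.44 between restricted groups, and cholesterol synthesis at 1.25 and 0.42.

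Within the integrated stress response, the genes for eIF2 and its regulators diverged. Of 12 listed kinases, phosphatase subunits and partners, 11 were tested. Under histidine 2 rose and none fell, against 20.0% and 15.0% of all genes tested. Under tryptophan 2 rose and 5 fell, against 22.8% and 27.5%. The difference was called in 7, against 43.3% of all genes tested. The list's tryptophan median was -0.15, and 0.10 at equal totals. EIF2S1 (chromosome 14, 67360328 to 67386516, GRCh38), the eIF2 subunit that the kinases phosphorylate, had 1391, 1394, 1236, 1381 and 1445 normalised counts in histidine controls 1 to 5, the order used throughout, and 2232, 2257, 2222, 2213 and 2285 in the restricted libraries. It had 4069, 3412, 3164, 3387 and 3146 in the tryptophan controls and 2146, 1888, 1994, 2244 and 2160.0 in the restricted libraries. No control library overlapped a restricted library of its table: the restricted groups of the 2 tables overlapped, reached from below under histidine and from above under tryptophan. The responses were 0.71 and -0.72, and the difference was 1.43 (SE 0.094, adjusted p = 1.07e-10). The kinase gene EIF2AK4, which encodes GCN2, rose under tryptophan (0.56) and had a response of -0.14 under histidine that was not called. EIF2AK3, encoding the endoplasmic reticulum kinase PERK, fell under tryptophan (-0.51; histidine 0.15, not called). EIF2B5, a subunit of the exchange factor that recycles eIF2, changed by -1.37 under tryptophan, and PPP1R15A, which directs the phosphatase back to eIF2, rose by 0.70.

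Of 16 listed stress transcription factors and regulators, 15 were tested. Under histidine 8 rose and 3 fell, against 20.0% and 15.0% of all genes tested. Under tryptophan 6 rose and 4 fell, against 22.8% and 27.5%. The difference was called with histidine higher in 4 and lower in 3, against 25.7% and 17.5%. The falls and the difference calls lay near the shares over all genes. ATF4 mRNA (chromosome 22, 39520559 to 39522686) itself fell under both, from 12855 ± 968 to 10023 ± 603 normalised counts with histidine (mean ± SD, n = 5 and 5) and from 17663 ± 941 to 12286 ± 508 with tryptophan, and the libraries did not overlap in either table. The difference of 0.17 was not called (95% interval -0.0087 to 0.34). CEBPB, CEBPG and DDIT3, which encode dimer partners or targets of ATF4, rose under both, by 0.77, 0.84 and 0.33 under histidine and 0.96, 0.70 and 0.29 under tryptophan, and none of the 3 differences was called. DDIT3 overlaps MARS1 at its end, so reads there can be shared. ATF3, a stress-induced repressor, went opposite ways. ATF3 had 399, 533, 492, 552 and 409 normalised counts in the histidine controls and 706, 547, 741, 588 and 716 in the restricted libraries. In the tryptophan table it had 1026, 1172, 1196, 1239.9 and 974 in controls and 593, 741, 629, 553 and 738 in restricted libraries. The histidine groups overlapped by their nearest libraries, the tryptophan groups did not, and the difference was 1.26 (SE 0.16, adjusted p = 1.3e-06). KLF10, a TGF-beta-inducible repressor, rose 4.26-fold under histidine, from 222 ± 64.1 to 918 ± 91.8, and had a response of -0.27 under tryptophan that was not called. FOXO3, a stress and survival factor, fell under tryptophan (-0.78) and had 0.20 under histidine, not called.

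TRIB3 and SESN2, inhibitors that ATF4 induces, rose under both restrictions and further under tryptophan. TRIB3 (chromosome 20, 380760 to 397559), a pseudokinase that restrains ATF4 and AKT, had 3679.6, 3274, 3168, 3518 and 2707 normalised counts in the histidine controls and 7748, 6767, 6916, 6415 and 6062 in the restricted libraries. It had 1726, 1782, 1834, 1725 and 1774 in the tryptophan controls and 10872, 10782, 11102, 11212 and 10164 in the restricted libraries. All restricted libraries lay above all controls in each table; the tryptophan table held both the lowest and the highest levels. TRIB3 rose 2.08-fold with histidine and 6.12-fold with tryptophan (difference -1.56, SE 0.10, adjusted p = 8.3e-11). SESN2 (chromosome 1, 28259518 to 28282491), a leucine sensor that inhibits mTORC1, had 779.6, 1468, 1388, 1378 and 945 in the histidine controls and 2361, 2063, 1957, 2018 and 1818 in the restricted libraries. Its tryptophan values were 771, 928, 859.9, 822 and 772 in controls and 2509, 2129.7, 2358, 2658 and 2294 in restricted libraries. The groups did not overlap in either table, and the histidine controls were the most spread. The difference was -0.71 (SE 0.18, adjusted p = 0.00365).

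The ATF4 targets as a list, 38 of 40 genes tested, rose more often under tryptophan: 21 rose and 7 fell under histidine, and 29 rose and 1 fell under tryptophan. The list's median response was 0.35 under histidine and 0.46 under tryptophan, against 0.025 and 0.023 over all genes tested. The difference was called with tryptophan higher in 22 members and with histidine higher in 3, and 18 members rose under both. The list's restricted groups lay at a median gap of 0.012 and its controls at 0.43. Without histidine control 3, 19 rose and 5 fell under histidine and the difference was called in 22 members.

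ASNS diverged. ASNS (chromosome 7, 97851677 to 97928441), whose promoter with the composite element is printed above, had 871, 808, 737, 838 and 1026 normalised counts in the histidine controls and 808, 866, 830.2, 905 and 806 in the restricted libraries. It had 623, 344, 430.4, 443 and 408 in the tryptophan controls and 885, 1056, 1318, 854 and 1131 in the restricted libraries. The histidine groups overlapped fully; the tryptophan controls lay below every other library, and the restricted libraries reached the histidine levels or exceeded them. The difference was -1.24 (SE 0.18, adjusted p = 9.38e-06), and the histidine response of -0.015 was not called (adjusted p = 0.944). Other synthesis enzymes rose under both: PSAT1 of the serine pathway by 0.46 and 1.10, PSPH, the last enzyme of that pathway, by 0.60 and 0.99, SHMT2 of mitochondrial one-carbon metabolism by 0.27 and 0.61, and the gluconeogenic enzyme PCK2 by 0.56 and 1.22, for histidine and tryptophan in that order. In all 4 the rise was larger under tryptophan by the test of the difference. PHGDH, the first enzyme of serine synthesis, was called in neither response (-0.14 and -0.0065). CTH, which makes cysteine, fell under histidine (-0.53) and rose under tryptophan (0.44), and ALDH18A1, the proline pathway enzyme, fell under both (-0.23 and -0.79).

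SLC7A11 (chromosome 4, 138164097 to 138242349), the cystine importer, was close in size under both. SLC7A11 had 212, 311, 302, 276 and 313 normalised counts in the histidine controls and 700.0, 659, 667, 663 and 698 in the restricted libraries. It had 232, 215, 208, 202 and 202 in the tryptophan controls and 555, 666, 605, 627 and 556 in the restricted libraries. In both tables every restricted library lay far above every control, and the difference of -0.23 was not called (95% interval -0.50 to 0.05). SLC6A9, a glycine carrier, rose by 1.94 under tryptophan and 0.36 under histidine (difference -1.58, adjusted p = 6.64e-07; without histidine control 3 the histidine response had adjusted p = 0.0732). SLC3A2, the heavy chain shared by several exchangers, rose under histidine alone among the calls (0.45; tryptophan 0.044), and so did the arginine and lysine carrier SLC7A1 (0.35; tryptophan -0.15), and both differences were called. SLC7A5, the large neutral carrier that takes in histidine and tryptophan, rose under histidine (0.42) and had 0.26 under tryptophan, with an uncalled difference of 0.16. SLC43A1 and SLC43A2, carriers of large neutral amino acids, rose by 1.02 and 0.95 under histidine; under tryptophan SLC43A1 rose by 1.41, and SLC43A2 had 0.10, not called. Of 23 listed transporters tested out of 25, 9 rose and 2 fell under histidine, 9 rose and 3 fell under tryptophan and the difference was called in 11, near the share of 43.3% over all genes; without histidine control 3, 8 rose and 1 fell under histidine and 10 differences were called.

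Among effectors, CHAC1 rose under both and DDIT4 and VEGFA diverged. CHAC1 had 489, 674, 619, 702 and 599 normalised counts in the histidine controls and 1362, 1201, 997, 1036 and 1160.3 in the restricted libraries. Its tryptophan values were 210.1, 235, 293, 207 and 256 in controls and 647, 492, 536, 768 and 705 in restricted libraries. The groups did not overlap within a table, and the difference of -0.48 was near the threshold (adjusted p = 0.0372, and 0.00322 to 0.0800 over 30 alternative settings, 14 of which ended the call). DDIT4 (chromosome 10, 72273924 to 72276036), an mTORC1 inhibitor also known as REDD1, had 6467, 4781, 4748, 4734 and 6232 in the histidine controls and 2091, 1807, 2150.1, 2287 and 2349 in the restricted libraries. In the tryptophan table it had 1825, 2046, 2225, 2247 and 2163 in controls and 2079, 1955, 2317, 2469 and 2557 in restricted libraries. The histidine controls alone stood high, and the other 3 groups overlapped. DDIT4 fell by 1.33 on the log2 scale under histidine, had 0.11 under tryptophan, not called, and differed by -1.44 (SE 0.14, adjusted p = 3.34e-08). VEGFA, the angiogenic growth factor, fell under histidine from 2640.4 ± 257 to 1983 ± 156 and rose under tryptophan from 1319 ± 80.1 to 2684 ± 248 (difference -1.43, adjusted p = 5.48e-10). VLDLR, the very low density lipoprotein receptor, rose 3.02-fold under tryptophan, from 384 ± 52.4 to 1154 ± 58.1, and stood at 1096 ± 129 and 1159 ± 91.9 in the histidine groups, a response of 0.084 that was not called.

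**Figure D3:**
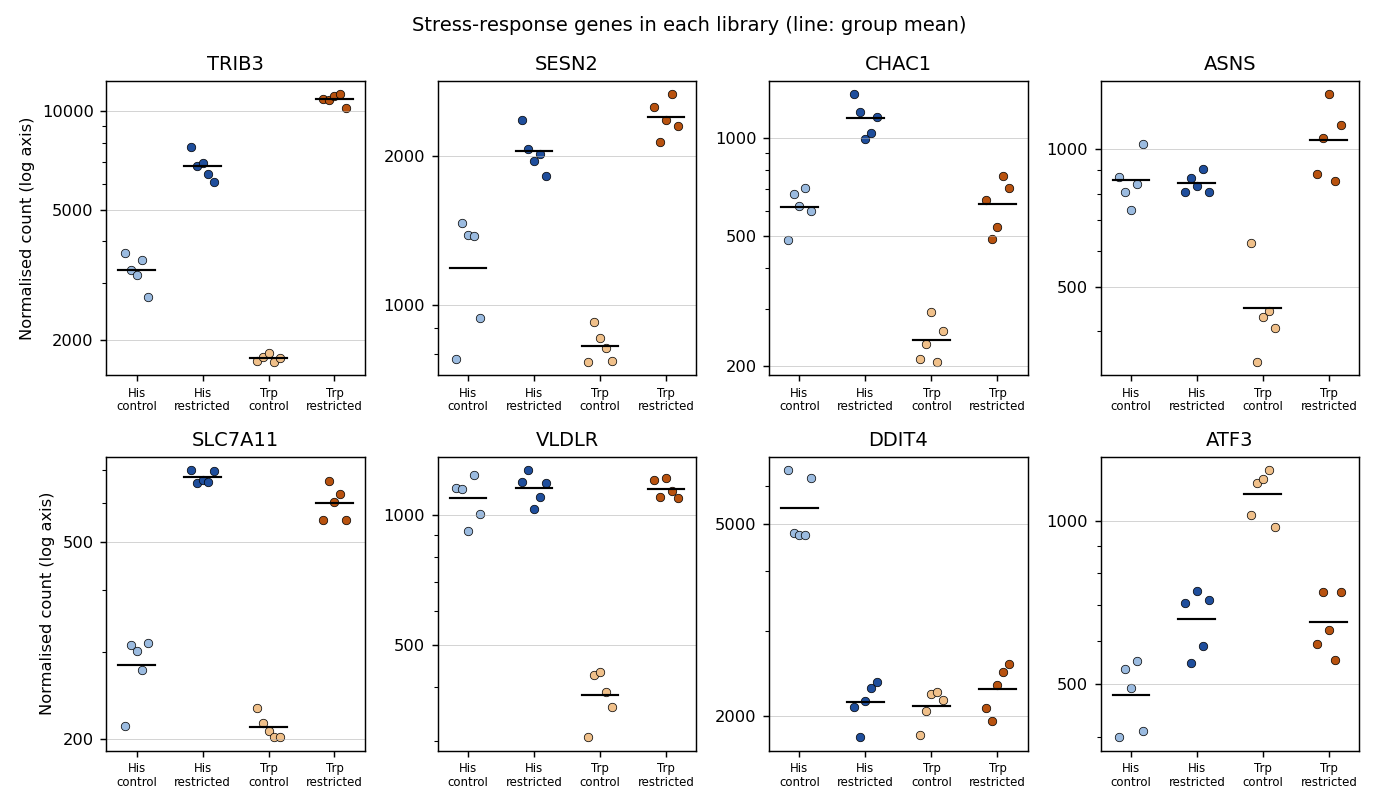
Normalised counts (log axis) of 8 stress-response genes in each of the 20 libraries; points are libraries 1 to 5 from left to right, lines are group means. TRIB3, SESN2, CHAC1 and SLC7A11 rise in both tables; for ASNS and VLDLR the tryptophan controls lie below the other 3 groups, for DDIT4 the histidine controls lie above them, and ATF3 moves in opposite directions.

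TXNIP and ARRDC4 rose under both restrictions and further under histidine. TXNIP (chromosome 1, 145992435 to 145996579), which binds thioredoxin and restrains glucose uptake, had 369, 479.6, 1534, 515 and 469.9 normalised counts in the histidine controls and 14062, 12549, 12868, 12518 and 11438 in the restricted libraries. It had 3233, 2961, 2825, 3085 and 2579.8 in the tryptophan controls and 5694, 6001, 5554, 6044 and 5899 in the restricted libraries. No groups overlapped; histidine control 3 was the highest of its group, and the tryptophan controls lay above all histidine controls. The responses were 4.45 and 0.99 and the difference 3.45 (SE 0.32, adjusted p = 1.32e-08); without histidine control 3 they were 4.80 for histidine and 3.80 for the difference. ARRDC4, printed above with its E-box, had 56.7, 52.4, 80.4, 82.5 and 53.1 in the histidine controls and 463, 488, 495, 467 and 397 in the restricted libraries. Its tryptophan values were 285, 184, 201, 186 and 181 in controls and 445, 528, 566, 518 and 547 in restricted libraries. The restricted groups of the 2 tables overlapped while the controls were apart, with responses of 2.83 and 1.34 and a difference of 1.49 (SE 0.20, adjusted p = 3.31e-06). The other arrestin relatives did not share this pattern of calls: ARRDC2 rose under histidine (0.32) and ARRDC3 under tryptophan (0.43), and ARRDC1 was called in neither. Of the MondoA partners, MLX fell under tryptophan (-0.57), and glucose uptake and phosphorylation genes SLC2A1 and HK2 fell under both, by 0.87 and 0.78 on the log2 scale under histidine and by 0.38 and 0.33 under tryptophan.

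In each response, genes that handle the 2 amino acids were called about as often as, or less often than, all genes tested (35.0% under histidine and 50.3% under tryptophan). Their difference was called more often than over all genes (43.3%), in lists of few genes. They are given one by one. HARS1, which charges histidine tRNA, stood at 1236 ± 73.8 and 1200.0 ± 68.6 normalised counts in the histidine control and restricted groups, a response of -0.043 that was not called, and fell under tryptophan from 1912 ± 111 to 1192 ± 84.9. WARS1 (chromosome 14, 100333790 to 100376327), which charges tryptophan tRNA, had 2089, 1958, 2114, 1925 and 1797 normalised counts in the tryptophan controls and 2996, 2311, 2704, 2706 and 3001 in the restricted libraries. In the histidine table it had 1358, 1419.7, 1385, 1481 and 1232 in controls and 1636, 1596, 1556, 1501 and 1394 in restricted libraries. WARS1 rose under tryptophan with no overlap (0.47), the histidine groups overlapped (0.16, not called), and the difference was -0.31 (SE 0.10, adjusted p = 0.0185). Its mitochondrial counterpart WARS2 fell under tryptophan from 449 ± 55.6 to 156 ± 14.1 and had 0.089 under histidine. Of 13 tested among 24 listed genes of tryptophan handling, 1 rose and 3 fell under histidine and 2 rose and 3 fell under tryptophan. The difference was called with histidine higher in 3 of them and lower in 5. QPRT, which takes the kynurenine pathway to NAD, fell under histidine (-0.997), from 1539 ± 231 to 768 ± 97.2, and had 0.29 under tryptophan, not called. Of 15 tested among 21 genes of histidine handling, 4 rose and 2 fell under histidine and 1 rose and 5 fell under tryptophan. The difference was called with histidine higher in 6 of them and lower in 2. CNDP2, a peptidase that can cleave carnosine and other dipeptides, rose under histidine (0.65; tryptophan -0.038). DPH2, of the pathway that modifies a histidine of elongation factor 2, went opposite ways (0.47 and -1.16), as did METTL9, a histidine methyltransferase (-0.28 and 0.43).

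The cytosolic tRNA synthetases, many of them known ATF4 targets, rose more under histidine. Of 20 tested, 8 rose and 3 fell under histidine, and 2 rose and 14 fell under tryptophan. The difference was called with histidine higher in 13 and lower in 2, WARS1 and QARS1, and the list's median responses were 0.093 and -0.29; at equal totals the tryptophan median was -0.043. MARS1, for methionine, had 5007, 5277, 5014, 5689.6 and 4415 normalised counts in the histidine controls and 10299.9, 8758, 9265, 9289 and 8875 in the restricted libraries. It had 6940.2, 6762, 6936, 6311 and 6675 in the tryptophan controls and 5710.1, 6465, 5175, 5354 and 5222 in the restricted libraries. The histidine groups did not overlap and the tryptophan groups did; MARS1 rose by 0.87 and fell by 0.27 on the log2 scale, a difference of 1.15 (adjusted p = 4.3e-09). FARSA and FARSB, the subunits of the phenylalanine enzyme, fell under tryptophan by 1.70 and 1.22. FARSA had 10872 to 12945 in the tryptophan controls and 3388 to 3970.1 in the restricted libraries, against 3139 to 3866 and 2770.4 to 3360.2 in the histidine groups, so the tryptophan controls alone stood high. QARS1, for glutamine, fell by 1.21 on the log2 scale under histidine and by 0.18 under tryptophan. AIMP2, a scaffold of the multi-synthetase complex, rose from 461 ± 63.9 to 921 ± 100.1 under histidine and fell from 1650.3 ± 89.4 to 616 ± 48.8 under tryptophan.

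Cytosolic chaperones fell under both restrictions, by sizes that differed between members. Of 21 heat-shock genes tested among 23, 2 rose and 16 fell under histidine, none rose and 19 fell under tryptophan, and 14 fell under both. Median responses were -0.75 and -1.14, and the difference was called with histidine higher in 13 and lower in 4. HSPA6, which has a near-identical pseudogene copy, HSPA7, and is uncertain for that reason, had 2829, 2370.3, 2378, 2466 and 3014 normalised counts in the histidine controls and 19.0, 84.2, 57.6, 142 and 152 in the restricted libraries. It had 14.0, 13.9, 14.5, 8.03 and 22.6 in the tryptophan controls and 5.30, 10.9, 25.8, 6.93 and 5.94 in the restricted libraries. The histidine controls alone carried HSPA6 at a high level, and the tryptophan groups overlapped at low values. HSPA6 changed by -5.14 under histidine and by -0.55, not called, under tryptophan (difference -4.59, SE 0.62, adjusted p = 2.83e-06). HSPA1B, whose reads cannot be fully told from those of its near twin HSPA1A, fell from 10874 ± 1172 to 715 ± 334 and from 423 ± 63.6 to 137 ± 12.1 (difference -2.45, adjusted p = 9.03e-07), and the co-chaperone DNAJB1 fell by 2.32 and 0.79 on the log2 scale.

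HSPA8 showed the other pattern. HSPA8 (chromosome 11, 123057489 to 123062462) had 16244, 15334, 14293, 16296 and 16120.1 normalised counts in the histidine controls and 6111, 6031, 5674, 6781 and 6143 in the restricted libraries. It had 41274, 36135, 34144, 38269.8 and 33194 in the tryptophan controls and 6925, 6854, 6673, 6685 and 7065 in the restricted libraries. The restricted groups of the 2 tables overlapped and the tryptophan controls lay above the histidine controls, so the fall was larger under tryptophan (difference 1.07, SE 0.087, adjusted p = 2.31e-09). HSPH1, a nucleotide exchange factor for HSP70, fell by nearly the same amount: from 3323 ± 233 to 1282 ± 137 and from 4138 ± 401 to 1567 ± 90.2, with a difference of 0.02 (95% interval -0.20 to 0.24). HSP90AA1, the inducible HSP90, fell by 1.25 and 1.54, also without a called difference (0.29, unadjusted 95% interval 0.028 to 0.55; called in 6 of 30 alternative settings, lowest adjusted p = 0.0212). HSPA4, another exchange factor, and HSF1, the transcription factor itself, went opposite ways, up under histidine (0.36 and 0.51) and down under tryptophan (-0.76 and -0.31). STIP1, the adaptor between HSP70 and HSP90, was called under tryptophan with -1.001 and had 0.069 under histidine.

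In the endoplasmic reticulum the chaperone HSPA5, also called BiP, fell under both, from 8575 ± 1547 to 3659.7 ± 274 and from 7577 ± 229 to 3789 ± 128, and the difference of -0.21 was not called (95% interval -0.47 to 0.05). All 26 genes of this list were tested. Under histidine 6 rose and 11 fell, against 20.0% and 15.0% of all genes tested. Under tryptophan 6 rose and 13 fell, against 22.8% and 27.5%. The rises lay near the shares over all genes, and 9 members fell under both. The list's tryptophan median was -0.20, and 0.049 at equal totals. ERN1 (chromosome 17, 64039142 to 64130144), which encodes the stress sensor IRE1, rose under tryptophan: 450.0, 477, 428, 448 and 555 normalised counts in controls and 1608, 1906, 1615, 1886 and 1620.0 in restricted libraries. The histidine libraries had 1013, 971, 1007, 921 and 846 in controls and 1068, 1064, 1237, 964 and 829.9 when restricted. Only the tryptophan groups separated, and the difference was -1.76 (SE 0.13, adjusted p = 6.89e-10). SEL1L and HERPUD1, of the machinery that removes misfolded proteins, rose under both, by 0.45 and 0.31 under histidine and by 1.28 and 0.77 under tryptophan, with called differences. DNAJB11, a BiP co-chaperone, rose under histidine (0.22) and fell under tryptophan (-0.41).

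**Figure D4:**
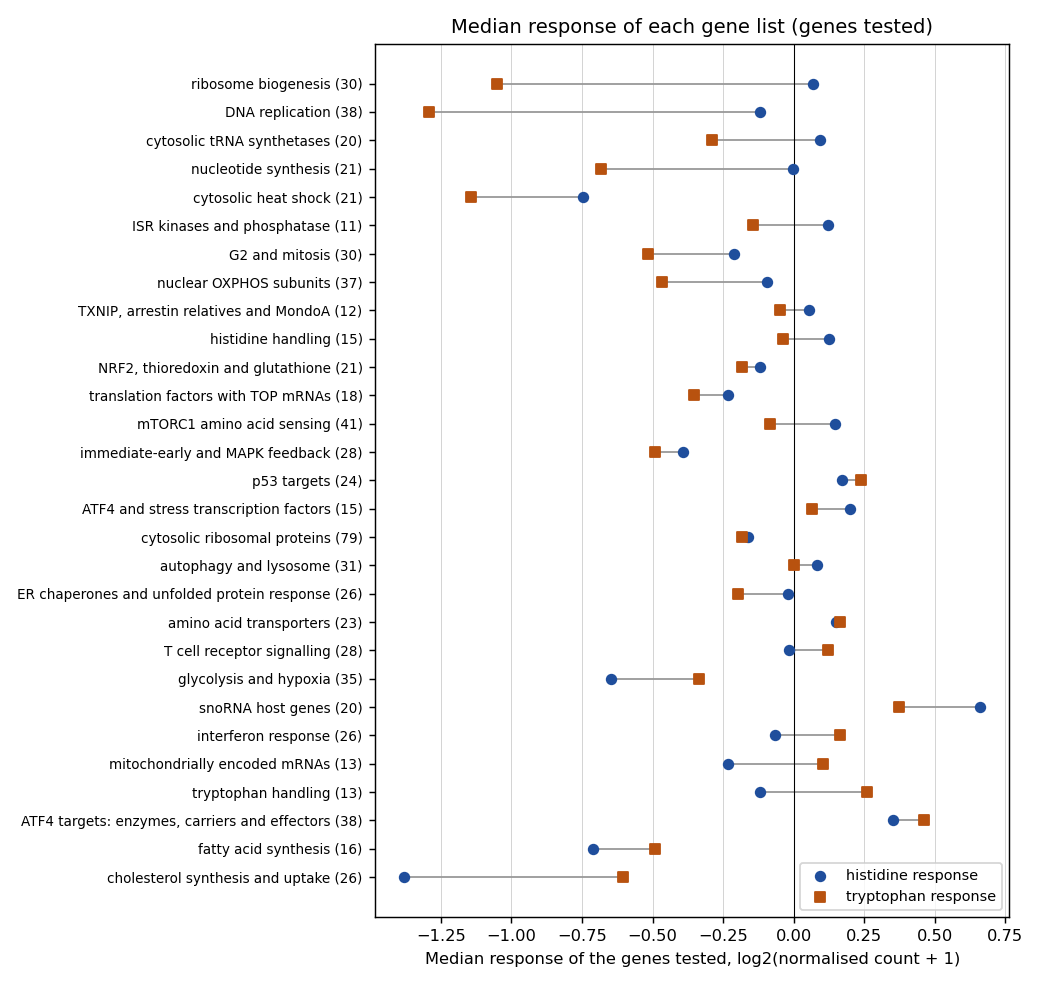
Median histidine response (blue circles) and median tryptophan response (orange squares) of the genes tested in each of 29 gene lists, on the log2(normalised count + 1) scale; the number tested stands beside each name. DNA replication and ribosome biogenesis lie far lower for tryptophan than for histidine, cholesterol synthesis is lower by histidine than by tryptophan, and cytosolic heat shock is below 0 for both.

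Sterol and fatty acid synthesis fell under both restrictions and further under histidine. Of 26 cholesterol genes tested among 27, 22 fell and 2 rose under histidine and 19 fell and 2 rose under tryptophan, and all 19 fell under histidine too. Median responses were -1.38 and -0.61, and the histidine response was the lower in 18 called differences and the higher in 2, the mevalonate pathway kinase PMVK and the exporter ABCA1. HMGCS1 (chromosome 5, 43287470 to 43313412), an early enzyme of the mevalonate pathway, had 4549, 6712, 6851, 6991 and 7106 normalised counts in the histidine controls and 849, 1150.3, 1231, 1539 and 1480.2 in the restricted libraries. It had 1535, 1336, 1266, 1282 and 1134 in the tryptophan controls and 612, 862, 845, 699 and 810.2 in the restricted libraries. The histidine controls stood above all other libraries and the histidine restricted libraries covered the range of the tryptophan controls. Its responses were -2.38 and -0.78, with a difference of -1.60 (SE 0.20, adjusted p = 1.29e-06). INSIG1, a sterol-sensing retention factor, fell by 1.78 and 0.24 on the log2 scale. TM7SF2, a late sterol reductase, was the member that went opposite ways: it had 560.1, 686, 759.7, 605 and 558 in the histidine controls and 411, 397, 419, 385 and 371 in the restricted libraries. In the tryptophan table it had 228, 274, 334, 258 and 316 in controls and 508, 502, 498, 472 and 451 in restricted libraries. Groups did not overlap in either table, and the difference was -1.46 (adjusted p = 3.33e-08). Of 16 fatty acid synthesis genes tested among 17, 11 fell under each restriction, 10 of them under both; the desaturase SCD fell from 56554 ± 6525 to 17495 ± 2221 and from 10359 ± 812 to 7333 ± 349, and ACSS2, which activates acetate, fell under histidine (-1.65) and rose under tryptophan (0.80).

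Ribosome biogenesis and DNA replication had the largest median differences of the 29 lists. Of 30 ribosome biogenesis genes, all tested, 6 rose and 4 fell under histidine, none rose and 29 fell under tryptophan, and the difference was called with histidine higher in 27; median responses were 0.067 and -1.05. NOP56 (chromosome 20, 2652632 to 2658393), a core protein of small nucleolar ribonucleoproteins that also hosts small nucleolar RNAs, had 1919.5, 1345, 1405, 1568 and 1543 normalised counts in the histidine controls and 3276, 2798, 2871, 2730.3 and 2886 in the restricted libraries. It had 7998, 7857, 7678, 7193 and 7446 in the tryptophan controls and 3435, 2807, 3160.1, 3075 and 3157 in the restricted libraries. The restricted groups overlapped each other's range, and the controls lay below them with histidine and above them with tryptophan. NOP56 rose by 0.91 and changed by -1.29 (difference 2.20, SE 0.11, adjusted p = 1.73e-12). BYSL and NOP2, which act in small and large subunit maturation, fell under tryptophan by 1.60 and 1.06 and had -0.24 and 0.18 under histidine, both called. The 79 ribosomal protein genes had nearly equal medians, -0.16 and -0.18, with 33 and 37 called lower, 25 of them in both; at equal totals the tryptophan median was 0.065.

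DNA replication genes fell throughout under tryptophan. All 38 were tested and all 38 fell, while under histidine 15 fell and 3 rose; medians were -1.29 and -0.12, and the difference was called with histidine higher in 36. MCM10 (chromosome 10, 13161558 to 13211110), which helps activate the replicative helicase, had 1972, 1898, 1693, 1856 and 1605 normalised counts in the histidine controls and 1503, 1616, 1622, 1555 and 1559.9 in the restricted libraries. It had 3446, 3635, 3501, 3652 and 3394 in the tryptophan controls and 740.2, 867, 812, 797 and 874 in the restricted libraries. Here the gap was open on both sides: the tryptophan controls lay above, and the tryptophan restricted libraries below, every histidine library. The difference was 1.91 (SE 0.086, adjusted p = 4.59e-13). CDC6 and MCM7, which load the helicase and form part of it, fell under tryptophan by 1.79 and 1.43 and had 0.12 and 0.031 under histidine, neither called. Between the restricted groups the list's median gap was 0.47, and between controls -0.63.

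Genes of G2 and mitosis, of nucleotide synthesis and of nuclear respiratory chain subunits showed the same order of medians with more overlap. The mitochondrially encoded mRNAs had the other order, with medians of -0.23 under histidine and 0.10 under tryptophan. Over all genes tested 20.0% rose and 15.0% fell under histidine, and 22.8% rose and 27.5% fell under tryptophan. At equal totals the median difference went from 0.35 to 0.13 for G2 and mitosis and from 0.55 to 0.34 for nucleotide synthesis. For the respiratory chain subunits it went from 0.30 to 0.089. Of 30 genes of G2 and mitosis 3 rose and 15 fell under histidine and 1 rose and 21 fell under tryptophan. CDC20, an activator of the anaphase complex, rose by 0.19 and changed by -0.996; AURKB, a mitotic kinase, fell further under histidine (-0.95 against -0.26); and MKI67, the proliferation marker, had 12945 ± 2277 and 15066 ± 1398 under histidine, not called, and fell from 17457 ± 1169 to 11721 ± 585 under tryptophan. Of 21 nucleotide synthesis genes 3 rose and 4 fell under histidine, near the shares over all genes, and 2 rose and 17 fell under tryptophan. PAICS and GART of purine synthesis and CTPS1 of pyrimidine synthesis fell under tryptophan by 1.40, 0.83 and 0.99 on the log2 scale. The 2 that rose under tryptophan were SHMT2 and MTHFD2, which are also on the ATF4 list. Of 37 nuclear subunits of the respiratory chain 4 rose and 15 fell under histidine and 1 rose and 31 fell under tryptophan, among them SDHB (-0.79), NDUFS3 (-0.59) and ATP5MC1 (-1.86). None of the 13 mitochondrially encoded mRNAs was called by limma in either response or in the difference; at an unadjusted p below 0.05 there was 1 lower under histidine, none under tryptophan and 1 in the difference. Without histidine control 3, 1 was called lower under histidine and 2 in the difference, MT-ND4L (-0.96, adjusted p = 0.0139) and MT-ND4 (-0.73, adjusted p = 0.039), both subunits of complex I. In the other lists and directions given here as none, limma also found 0 genes at an unadjusted p below 0.05.

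Many host genes of small nucleolar RNAs, non-coding apart from NOP56, rose under both. Of 20 tested, 11 rose and 2 fell under histidine, 9 rose and 4 fell under tryptophan, and 9 rose under both. SNHG12 (chromosome 1, 28578538 to 28582983), annotated as antisense and uncertain because no strand setting for kallisto is given in the sources used here, had 60.2, 50.2, 50.2, 49.5 and 70.2 normalised counts in the histidine controls and 1084, 937, 1056, 1004 and 890.1 in the restricted libraries. It had 66.6, 87.2, 63.1, 121 and 91.7 in the tryptophan controls and 457, 499, 451, 555 and 560.2 in the restricted libraries. Controls were low in both tables without overlap with the restricted libraries, and the histidine rise was larger (difference 1.56, SE 0.21, adjusted p = 2.62e-06). GAS5, SNHG5 and SNHG29 rose under both by similar amounts, 1.07, 2.48 and 1.22 under histidine and 1.17, 2.88 and 1.54 under tryptophan, with none of the differences called. SNHG15 rose under histidine (1.09), and its tryptophan response of 0.01 was not called.

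The immediate-early gene JUN and the phosphatases DUSP8 and DUSP10 were among the largest differences. The list of immediate-early and feedback genes as a whole had a median difference of 0.093. JUN (chromosome 1, 58780791 to 58784047), a subunit of the AP-1 factor, had 165, 89.0, 433, 156 and 244 normalised counts in the histidine controls and 138, 199, 137, 214 and 134 in the restricted libraries. It had 2709, 2221, 1924, 2381 and 1960.0 in the tryptophan controls and 114, 82.7, 226, 232 and 125 in the restricted libraries. The tryptophan controls alone stood high and the other 3 groups overlapped. JUN fell by 3.94 on the log2 scale under tryptophan and had -0.23 under histidine, not called (difference 3.71, SE 0.44, adjusted p = 4.89e-07). CREB5, a bZIP partner of JUN, had 617, 727, 609.9, 744 and 730.4 in the tryptophan controls and 9.69, 5.18, 25.0, 13.9 and 11.3 in the restricted libraries. Its histidine values were 9.00, 6.82, 52.7, 4.90 and 22.5 in controls and 21.6, 21.6, 25.5, 28.7 and 17.9 in restricted libraries, so again the tryptophan controls alone were high. Its difference of 6.51 (SE 0.62, adjusted p = 2.41e-08) was the largest positive one among the genes named by rule; without histidine control 3 its histidine response had adjusted p = 0.0123, against 0.2 with it.

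DUSP8 and DUSP10, phosphatases that switch off the JNK and p38 kinases, rose under histidine and fell under tryptophan. DUSP8 had 119.7, 172, 219.6, 121 and 134 normalised counts in the histidine controls and 342, 323, 324, 280.3 and 284 in the restricted libraries. It had 1004, 1201, 1208, 986 and 1192 in the tryptophan controls and 170.2, 143, 167, 174 and 129 in the restricted libraries. Groups did not overlap within either table, and the difference was 3.88 (SE 0.20, adjusted p = 2.44e-12). DUSP10 rose from 105 ± 18.8 to 155 ± 12.2 and fell from 617 ± 58.0 to 109 ± 11.0. EGR1 and IER3, immediate-early genes, went the other way. EGR1 fell from 2181 ± 211 to 966 ± 179 under histidine and rose from 1141 ± 105 to 1597 ± 293 under tryptophan, and IER3 fell by 0.76 and rose by 0.45. FOS fell under histidine (-2.29; -1.86 without histidine control 3) and had 0.06 under tryptophan. MYC, the growth regulator, fell under both, by 0.64 and 1.33, with a called difference of 0.68. The immediate-early and feedback list holds neither CREB5 nor DUSP8, and 28 of its 30 genes were tested. Under histidine 1 rose and 12 fell, against 20.0% and 15.0% of all genes tested. Under tryptophan 2 rose and 17 fell, against 22.8% and 27.5%. The difference was called with histidine higher in 10 and lower in 6, against 25.7% and 17.5%.

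**Figure D5:**
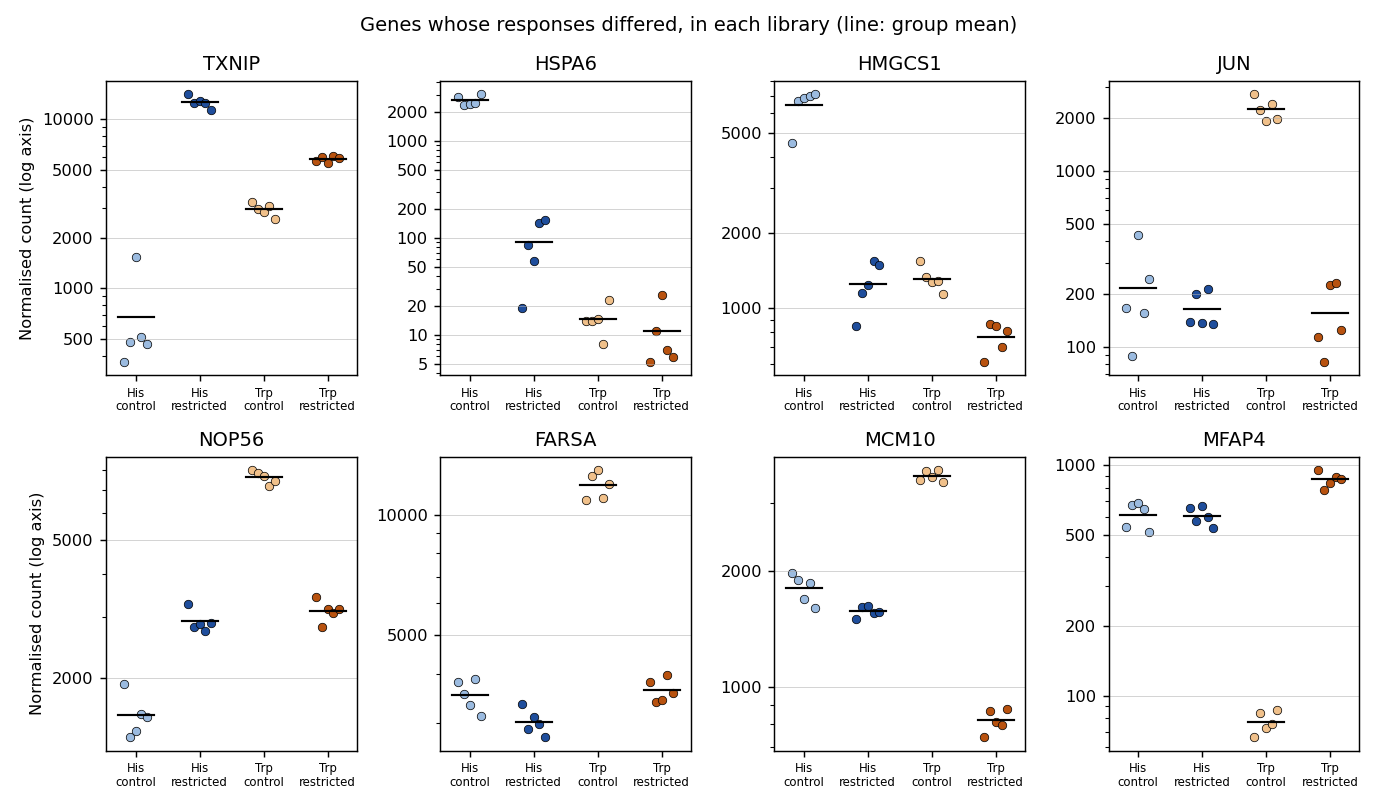
Normalised counts (log axis) of 8 genes with a called difference, in each library; points are libraries 1 to 5 from left to right and lines are group means. For HSPA6 and HMGCS1 the histidine controls lie above the other groups, for JUN, NOP56 and FARSA the tryptophan controls do, for MFAP4 the tryptophan controls lie below them, and for MCM10 the tryptophan groups lie on either side of the histidine groups.

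Genes chosen by size of change included several outside these lists. The largest negative differences after HSPA6 were in CDRT4, MFAP4, IGFBP7, JAML and TTLL7. MFAP4 (chromosome 17, 19383445 to 19387190), a protein of elastic fibres, had 66.1, 83.9, 72.6, 75.5 and 87.0 normalised counts in the tryptophan controls and 954, 785, 840.2, 892 and 873 in the restricted libraries. In the histidine table it had 538, 673, 684, 648 and 512 in controls and 654, 575, 663, 595 and 537 in restricted libraries. MFAP4 rose 11.2-fold under tryptophan from controls that stood below every other group, and the difference was -3.49 (SE 0.14, adjusted p = 1.06e-13). JAML, a junction adhesion protein of leukocytes, rose from 23.1 ± 9.22 to 139.8 ± 14.9 under tryptophan and stood at 68.4 ± 4.00 and 65.2 ± 17.8 under histidine. CDRT4 is listed at 0 in tryptophan controls 2 and 5 and at 107 to 126 in the tryptophan restricted libraries, and its difference was -4.25 with an SE of 1.18. IGFBP7, a secreted growth factor binding protein, stood at 702 in histidine control 3 and between 26.9 and 38.8 in the other histidine controls, and its difference moved from -3.08 to -2.19 without that library. TTLL7, a tubulin-modifying enzyme, is listed at 0 in tryptophan control 3 and NECAP1, an endocytosis adaptor with a difference of 3.27, at 0 in histidine control 1, and both calls lay near the threshold (adjusted p = 0.0398 and 0.0444).

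The 6 shared rises with the largest smaller change were KCNIP3, MACROD2, DMGDH, RGS16, MAN1C1 and FLRT1. RGS16 (chromosome 1, 182598623 to 182604389), which shortens G protein signals in lymphocytes, had 106, 111, 90.2, 68.3 and 56.1 normalised counts in the histidine controls and 376, 298, 314, 232 and 255 in the restricted libraries. It had 215, 158, 164, 169 and 179.6 in the tryptophan controls and 533, 725, 525, 578 and 532 in the restricted libraries. Restricted libraries lay above controls without overlap in each table, by 1.79 and 1.70, and the difference of 0.089 was not called (95% interval -0.40 to 0.58). MAN1C1, a Golgi mannosidase, rose from 68.4 ± 12.3 to 197 ± 31.4 and from 53.1 ± 13.7 to 152 ± 21.6 (difference -0.015, 95% interval -0.55 to 0.52). DMGDH, which demethylates dimethylglycine, rose further under tryptophan (2.98 against 1.73). KCNIP3, a calcium-binding repressor, is listed at 0 in histidine control 1 and tryptophan control 5; KCNIP3 had 152 to 180.4 in the histidine restricted and 48.9 to 68.1 in the tryptophan restricted libraries, and the interval of its difference, -2.74 to 2.53, does not show whether the rises were alike. MACROD2 and FLRT1 rose by 1.92 and 1.49 under histidine and by 2.41 and 1.94 under tryptophan.

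The 6 shared falls named by the same rule were 4 chaperone genes already described, HSPA1B, HSPH1, HSPA8 and HSP90AA1, with TERT and GPR3. TERT, the catalytic subunit of telomerase, fell from 230.4 ± 54.2 to 82.3 ± 18.3 and from 265 ± 36.2 to 63.4 ± 30.7 normalised counts. GPR3, a receptor that signals through cyclic AMP, fell from 98.4 ± 16.5 to 37.9 ± 15.1 and from 107 ± 18.6 to 42.0 ± 13.6, with a difference of -0.06 (95% interval -0.78 to 0.66). Opposite genes named by rule were DUSP8, AIMP2 and NOP56, described above, and ZNF704, a zinc finger protein with responses of 0.88 and -1.06. The readthrough transcript ANKHD1-EIF4EBP3 shares its sequence with both of its genes and is uncertain (0.99 and -1.29; the histidine response had adjusted p = 0.126 without histidine control 3). The reverse direction held ACSS2, above, the histone gene H2BC21 (-0.87 and 1.71), the phospholipid flippase ATP8A2 (-0.85 and 1.18), ZNF883 (-1.27 and 0.98) and GOLGA6L4 (-1.09 and 1.17), which belongs to a family of near-identical copies and is uncertain.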

How the data were processed

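Per the labels' protocols, libraries were strand-specific and made from kit-purified total RNA. The signal values used here are per-gene abundances that the authors normalised with DESeq2 1.44.0 and deposited as 1 table per amino acid, per the file names. FastQC 0.11.9, kallisto 0.50.1 and the GRCh38 build are also named in the submitters' processing notes, without settings. The tables were scaled separately, and values are not whole reads, so no count model was fitted and levels in different tables were only described. Per-table responses and their difference were estimated in 1 fit over 4 groups with limma 3.58.1 in R 4.3.3 (log2 with a pseudocount of 1, intensity trend, two-sided). Intervals are 95%. Figures used matplotlib.

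The members and 29 gene lists (760 genes) were chosen with earlier results of these data known. Named by rule were, among protein-coding genes with a group mean of at least 100, the 6 largest differences each way, the 6 shared rises and 6 shared falls, 5 opposite genes each way, 3 genes per list by adjusted p and 20 genes always given; other genes were chosen after their values were seen. Gene positions and promoters are from RefSeq (GRCh38.p14), with 14090 symbols matched directly and 90 by a synonym. Protein sequences were not used here, so histidine and tryptophan content was not computed. The labels do not state whether replicate numbers pair the libraries, and the main fit used no pairing. Same-number deviations correlated at -0.107 to 0.106.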

Additional observations from a re-analysis of the deposited data

Results flagged for a closer look

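The responses differed by the test of the difference in 7016 genes, and 1307 of the genes called in both went opposite ways.

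A single library was flagged as apart from the other 4 of its group in 21 of 428 groups, for 107 genes examined. A flag means that its gap to the nearest library exceeded 0.71 of the group's range, so in a tight group the departure can be small. By chance about 1 group in 20 is flagged. Histidine control 3 gave 5 of the flags. TXNIP at 1534 normalised counts, IGFBP7 at 702 and IFI6, an interferon-induced gene, at 1519 were the highest of their group. JAML was also the highest, at 75.5 against 65.9 to 67.5 in the others. THEMIS, a T cell signalling protein, was the lowest, at 2319 against 2459 to 2511. In other histidine controls HMGCS1 was low in library 1 (4549) and AURKB high in library 5 (1988, against 1903 to 1912 in the others). In the histidine restricted group NOP56 was high in library 1 (3276), IFI6 high in library 3 (439) and SEL1L low in library 3 (3297). Tryptophan control 1 was high for EIF2S1 (4069) and ARRDC4 (285), control 2 low for IGFBP7 (3.97) and GPR3 (74.3), control 3 high for MACROD2 (22.6), and control 5 is listed at 0 for KCNIP3. In the tryptophan restricted group RGS16 was high (725) and AIMP2 low (529) in library 2, HSPA6 high (25.8) and STAT2, an interferon signalling factor, low (328) in library 3, and MAN1C1 low in library 5 (115). The differences of TXNIP and IGFBP7 without histidine control 3 are 3.80 and -2.19.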

How the results depend on the processing

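Alternatives changed the pseudocount (0.25, 5) and the filter (none, mean of at least 100) and used trimmed-mean factors or equal totals, the replicate block, a fit per table, no intensity trend, library weights, each library left out and, chosen after seeing the data, histidine controls 3 and 5 left out together. With equal totals 6475 genes rose and 2678 fell under tryptophan, and shared rises were 1921 and shared falls 617. Genes higher under histidine and lower under tryptophan were then 644, and the reverse 596. The difference was higher with histidine in 2750 and lower in 4593. With a mean of at least 100, which tests fewer genes, 2357 rose under tryptophan and 1612 differences were lower. Leaving out 1 library gave 4834 to 5750 histidine calls (2753 to 3274 higher, 2081 to 2476 lower), 7572 to 8391 tryptophan calls (3365 to 3808, 4201 to 4583), 6515 to 7098 differences (3917 to 4258, 2598 to 2840), 1801 to 2007 shared genes (882 to 1027, 885 to 1036) and 1100 to 1329 opposite genes (808 to 962, 292 to 367). With the replicate block the counts were 5036, 7733, 6454, 1780 and 1117 in that order. The labels do not state whether the numbers pair the libraries, and 2 of 10 libraries correlated best with their own number. Of 127 named genes 109 had a called difference and 105 kept call and sign in every setting. The calls of NECAP1, TTLL7 and CHAC1 were lost in 16, 11 and 14 settings and that of TIPARP, a target of the aryl hydrocarbon receptor, in 1. Calls were gained for HSP90AA1 and MT-ND4L in 6 settings each, HSPA5 and MT-ND4 in 3, SLC7A11, FLRT1 and MT-CO1 in 2 and ATF4 and PHGDH in 1. Signs turned only for the uncalled differences of 8 named genes. At equal totals they were -0.12 for RGS16, -0.19 for HSPH1, -0.047 for ATF4, -0.18 for DDIT3 and -0.061 for CD3E, with trimmed-mean factors -0.034 for HSPH1 and -0.017 for DDIT3, with a pseudocount of 5 0.0091 for KCNIP3 and 0.0020 for MAN1C1, and with library weights -0.032 for RGS16 and 0.029 for MAN1C1. Without histidine controls 3 and 5 they were 0.75 for KCNIP3 and -0.063 for RGS16. Leaving out 1 library gave -1.31 to 0.73 for KCNIP3, -0.11 to 0.093 for MAN1C1, -0.030 to 0.057 for HSPH1, -0.24 to 0.10 for GPR3, -0.050 to 0.12 for DDIT3 and -0.052 to 0.19 for RGS16. The cause of these shifts was not tested. Protein composition, planned as a further description, was not run. Genes with low counts have the widest intervals, and values at 0 may be failed estimates.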

Other observations

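Many glycolysis and hypoxia genes fell under each restriction, with median responses of -0.65 under histidine and -0.33 under tryptophan, the latter -0.087 at equal totals. Of 35 tested among 36, none rose and 27 fell under histidine, with 0 at an unadjusted p below 0.05 among those higher, and 5 rose and 19 fell under tryptophan, 16 falling under both. The enzymes ALDOA, PGK1 and PGAM1 fell by similar amounts (-0.62, -0.75 and -0.67 under histidine, -0.59, -0.63 and -0.62 under tryptophan, no difference called). ENO1 fell further under tryptophan (-0.40 against -1.19). The hypoxia-inducible genes BNIP3L, a receptor for mitophagy, NDRG1 and EGLN3, an oxygen-sensing hydroxylase, fell under histidine (-0.53, -0.81 and -0.97) and rose under tryptophan (0.38, 0.40 and 0.64). FTH1 and FTL, the ferritin chains, fell under histidine (-0.48 and -0.54), and under tryptophan FTH1 rose (0.41) while FTL had 0.20, not called.

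T cell receptor genes divided. Of 28 tested, 7 rose and 8 fell under histidine, 12 rose and 8 fell under tryptophan, and the difference was called in 18. Over all genes tested 20.0% rose and 15.0% fell under histidine, and 22.8% rose and 27.5% fell under tryptophan. The difference was called in 43.3% of all genes. TRAC and TRBC2, constant regions of the receptor, rose under histidine (0.35 and 0.32) and fell under tryptophan (-0.64 and -0.62). VAV1, an exchange factor below the receptor, and CD247, its zeta chain, fell under histidine (-0.46 and -0.27) and rose under tryptophan (0.65 and 0.30). CD3E rose under histidine (0.21), had 0.055 under tryptophan and its difference was not called (95% interval -0.0041 to 0.31). Of 24 p53 targets tested among 25, 7 rose and 4 fell under histidine and 11 rose and 7 fell under tryptophan. Their difference was called with histidine higher in 7 and lower in 5. The falls and the difference calls of this list were near the shares over all genes. PMAIP1, a death-promoting BCL2 relative, and AEN, a nuclease, fell under tryptophan from 1833 ± 205 to 771 ± 54.3 and from 1407 ± 96.4 to 545 ± 81.0 normalised counts, and had 0.26 (called) and 0.22 (not called) under histidine. BTG2, an antiproliferative factor, rose under histidine (0.41) and fell under tryptophan (-0.50). Of 26 interferon-response genes tested among 30, 6 rose and 4 fell under histidine and 10 rose and 2 fell under tryptophan, the histidine shares being near the 20.0% and 15.0% over all genes. STAT2 rose under tryptophan from 188 ± 54.9 to 456 ± 72.8 and had -0.089 under histidine, not called. IFI6 fell under histidine by 0.81, or 0.52 without histidine control 3, and rose under tryptophan by 0.66.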
